A study of Mus musculus with 8 samples.

Results

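The Id proteins and the E proteins form a family of helix-loop-helix factors, and 6 of its genes were followed here: the inhibitors Id1, Id2 and Id3, and the E proteins Tcf3, Tcf4 and Tcf12. The 6 genes were chosen by name out of 19938 genes with a probe set of their own on the array as a known family, at a time when earlier results of these arrays, the Id2 difference among them, had been seen. Each had 1 probe set that carries its symbol alone, and none had a probe set shared with another gene. All 6 lay above the filter on low values on all 8 arrays, so all 6 were tested. Id1 (mean log2 value 7.54) and Tcf4 (7.92) were the lowest, at percentiles 49.8 and 54.6 of all genes. The medians of the arrays were 7.35 to 7.42, and whether these 2 genes stood above background was not tested.

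E proteins are transcription factors that pair through their helix-loop-helix region and bind a short DNA motif, the E-box, through a basic region next to it. Id proteins have the helix-loop-helix region but no basic region, so an E protein paired with an Id protein cannot bind DNA. In mouse T cells Tcf3 (also called E2A) and Tcf12 (HEB) drive early development in the thymus, and Id2 and Id3 hold E proteins in check in mature cells. Follicular helper T (Tfh) cells, which help B cells in germinal centres, depend on the repressor Bcl6. Id2 has been reported to oppose the Tfh fate and to be a target of Bcl6.

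The series compared naive CD4 T cells of mice with a T cell-specific conditional Bcl6-/- genotype (KO, 4 arrays) with those of wild-type mice (WT, 4 arrays). In both groups the cells were stimulated through CD3 and CD28 in the presence of IL6 and IL21 over 24 hours, while antibodies neutralised IL-4, IFNg and TGFb, and their RNA was read on Affymetrix whole-transcript arrays. Both groups carry the Tfh label. The Cre driver, the age of the mice and whether each array is a separate mouse are not given in the sources used here, so p-values measure the spread between these arrays, which may be technical.

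Bcl6, the deleted gene, read 9.08, 9.15, 9.18 and 9.19 in the KO-labelled arrays and 8.61, 8.91, 8.78 and 8.79 in the WT-labelled arrays (log2 values), so it was higher in KO. Its 1 probe set is not placed here relative to the deleted part of the gene and so does not check the labels, and directions below are those of the arrays as labelled. CD4 T cell markers were all above the filter (10 of 10), as were 9 of 10 Tfh markers, the exception being Ascl2. Of all 19938 genes 11926 were tested, so passing the filter alone says little about which cells these are. KO replicate 1 stood apart, with a median distance from its group mean of 0.115 over the tested genes, against 0.035 to 0.0725 in the other 7 arrays. The 40th percentile of its values, 7.15, was also above that of the other arrays (6.91 to 7.06).

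Of the 3 Id genes, Id2 alone passed the threshold (limma adjusted p under 0.05 over all 11926 tested genes), and it was higher in the KO-labelled arrays. None of the 3 E protein genes passed, and all 3 had a lower mean in KO. Thus 1 of the 6 genes was called, where 1.32% of all tested genes were (0.646% higher and 0.671% lower in KO). The KO and WT values did not overlap in 2 of the 6 (Id2 above, Tcf3 below), or 33.3%. Of all tested genes 10.8% did not overlap, with KO above WT in 3.1% and below in the rest, the larger part. Of the 6 differences 1 was positive, against 41.3% of all tested genes, and 16.6% of all tested genes had an unadjusted p under 0.05. The change of Id2 was known when these genes were picked, so these shares are a description.

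**Figure D1:**
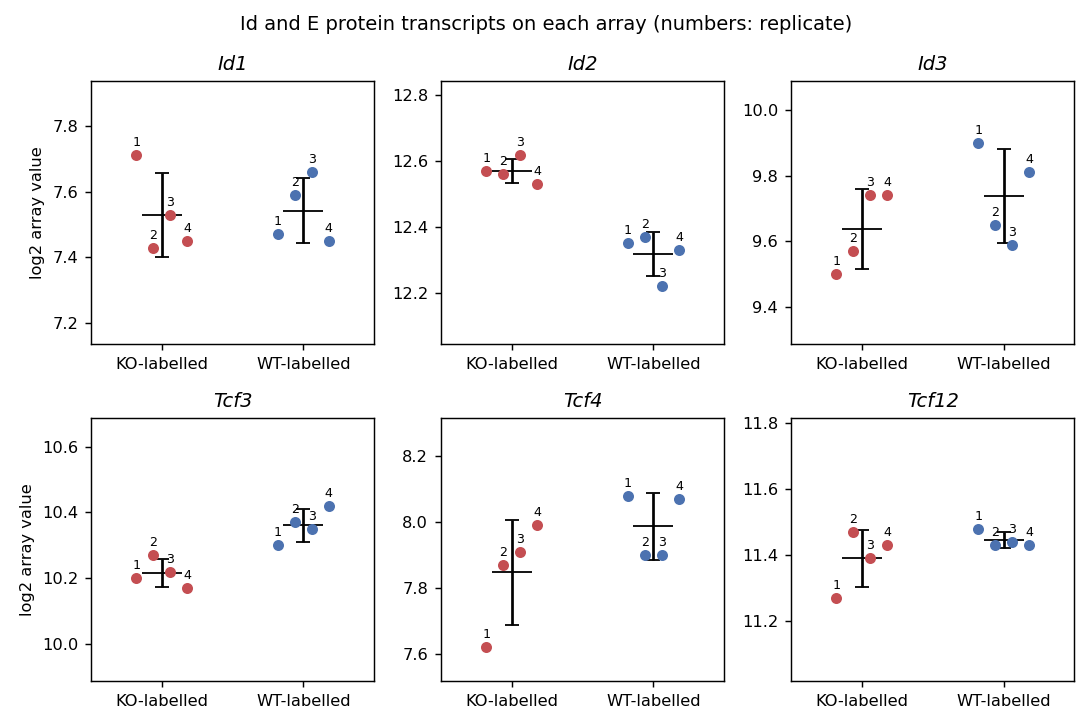
Array value (log2, y axis) of each gene in the 4 KO-labelled (left) and 4 WT-labelled arrays (right); each point is 1 array with its replicate number, the bar is the mean and the whiskers are the SD. Each panel spans the same 0.8 log2 units. The KO and WT values are apart in Id2 and in Tcf3 and overlap in the other 4 genes.

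Id2, which binds E proteins and is abundant in effector T cells and innate lymphocytes, read 12.57, 12.56, 12.62 and 12.53 in the KO-labelled arrays, against 12.35, 12.37, 12.22 and 12.33 in the WT-labelled arrays. Every KO-labelled value lay above every WT-labelled value, and WT replicate 3 was the lowest of the 8. The means were 12.57 ± 0.0374 in KO and 12.3 ± 0.067 in WT (log2, SD, n = 4 each), a difference of 0.25 ± 0.0487 (SE) or 1.19-fold, with a 95% interval of 0.14 to 0.36. It rose in KO with a limma adjusted p of 0.0462, and the exact two-sided permutation test of 4 against 4 arrays gave 0.0286, the smallest p it allows. Every gene whose groups do not overlap gets that permutation p, as 10.8% of all tested genes did, so it restates the separation.

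The size of the Id2 difference was modest beside other genes: 4.03% of the tested genes differed by at least as much, and the median size among the 157 called genes was 0.35. In bulk RNA a change in the share of Id2-rich cells and a change in Id2 per cell cannot be told apart. The call was narrow, and it depended on how the filter on low values was defined. The first definition run, a percentile over all probe sets, left Id2 outside the threshold (limma adjusted p = 0.0514). The definition was changed after that value was seen, first to a percentile over genes (0.0466) and then to one over probe sets with 1 symbol (0.0462), which is the one used here because it gives the same number of tested genes as an earlier processing of these arrays. Of the 8 fits that left out 1 array, the fit without KO replicate 1 kept the call (limma adjusted p = 0.02) and the other 7 lost it (0.0751 to 0.142), with differences between 0.22 and 0.27. Centring on the array median (0.0589) and no filter (0.103) ended it too.

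**Figure D2:**
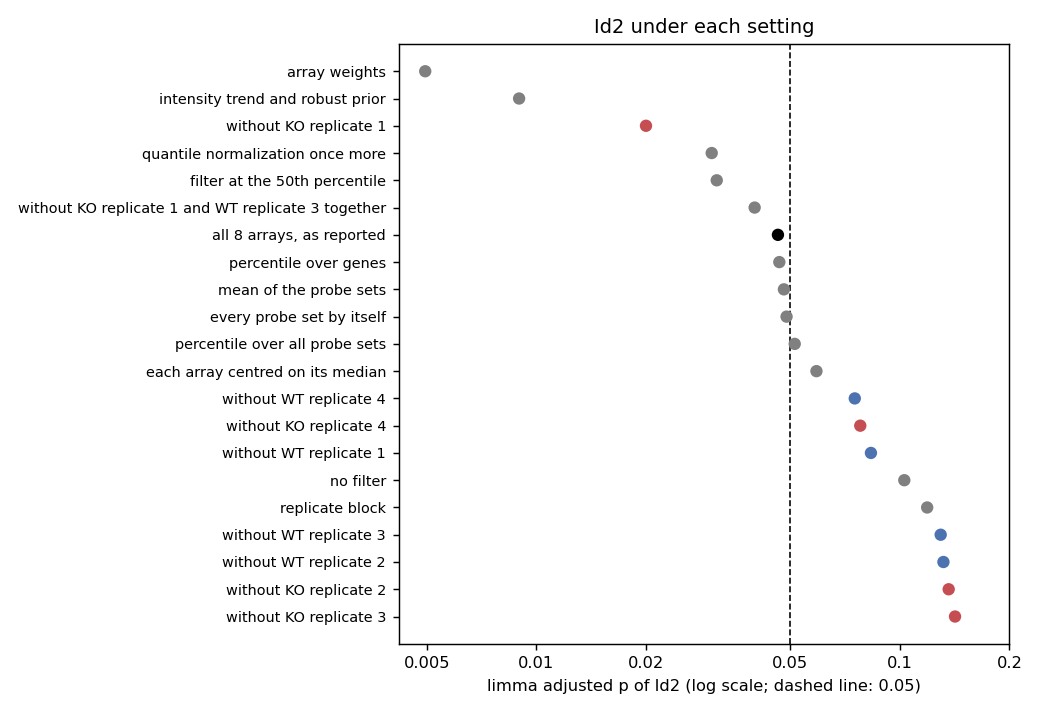
Limma adjusted p of Id2 (x axis, log scale) under the fit over all 8 arrays and under 20 alternatives (y axis), with the threshold of 0.05 as a dashed line; red points leave out a KO-labelled array, blue points a WT-labelled one. The reported value, 0.0462, lies just under the line, and 9 of the 20 alternatives lie under it.

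Id3, the inhibitor that is prominent in naive and memory precursor T cells and is induced through the T cell receptor, did not pass. It read 9.50, 9.57, 9.74 and 9.74 in the KO-labelled arrays and 9.90, 9.65, 9.59 and 9.81 in the WT-labelled arrays. The groups overlapped, with the highest value in WT replicate 1 and the lowest in KO replicate 1. The difference was -0.10 ± 0.0826 (SE, limma adjusted p = 0.625, exact permutation p = 0.371), with a 95% interval of -0.28 to 0.084.

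Id1, best known as a gene induced by bone morphogenetic proteins, read 7.71, 7.43, 7.53 and 7.45 in the KO-labelled arrays and 7.47, 7.59, 7.66 and 7.45 in the WT-labelled arrays. The highest value was in KO replicate 1, and the other 3 KO-labelled arrays lay within the range of the WT-labelled ones or just below it. The difference was -0.0125 ± 0.0739 (SE, limma adjusted p = 0.964, exact permutation p = 0.886), with a 95% interval of -0.18 to 0.15. Its sign turned in 4 of the 8 fits that left out 1 array.

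Among the E proteins, Tcf3 showed the clearest separation. Tcf3, which encodes the splice forms E12 and E47, read 10.20, 10.27, 10.22 and 10.17 in the KO-labelled arrays and 10.30, 10.37, 10.35 and 10.42 in the WT-labelled arrays. Every KO-labelled value lay below every WT-labelled one, by at least the step between 10.27 and 10.30. The means were 10.2 ± 0.042 in KO and 10.4 ± 0.0497 in WT (SD, n = 4 each).

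The Tcf3 difference of -0.14 ± 0.046 (SE) had a 95% interval of -0.25 to -0.042 and an exact permutation p of 0.0286, the smallest that 4 against 4 allows. That p only restates that the groups did not overlap, as in 10.8% of all tested genes. Over all genes the Tcf3 difference did not pass (limma adjusted p = 0.152), and no fit that left out 1 array called it (0.0939 to 0.366). It was negative in all 20 alternatives, between -0.17 and -0.12, and array weights alone brought it past the threshold (limma adjusted p = 0.0344). Many of these alternatives, such as another filter, cannot move the difference itself, so they do not test its size or sign.

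Tcf12, the partner of Tcf3 in thymocytes, read 11.27, 11.47, 11.39 and 11.43 in the KO-labelled arrays and 11.48, 11.43, 11.44 and 11.43 in the WT-labelled arrays. KO replicate 1 was the lowest of the 8, and the WT-labelled arrays hardly differed (SD 0.0238, against 0.0864 in KO, n = 4 each). The difference was -0.055 ± 0.0519 (SE, limma adjusted p = 0.674, exact permutation p = 0.286), and its 95% interval ran from -0.17 to 0.061. Without KO replicate 1 it was -0.015.

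Tcf4 (also called E2-2), the E protein that defines plasmacytoid dendritic cells, read 7.62, 7.87, 7.91 and 7.99 in the KO-labelled arrays and 8.08, 7.90, 7.90 and 8.07 in the WT-labelled arrays. KO replicate 1 was again the lowest. The difference was -0.14 ± 0.0831 (SE, limma adjusted p = 0.457, exact permutation p = 0.2), with a 95% interval of -0.33 to 0.046. It had nearly the size of the Tcf3 difference with a wider spread, and without KO replicate 1 it was -0.064.

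**Figure D3:**
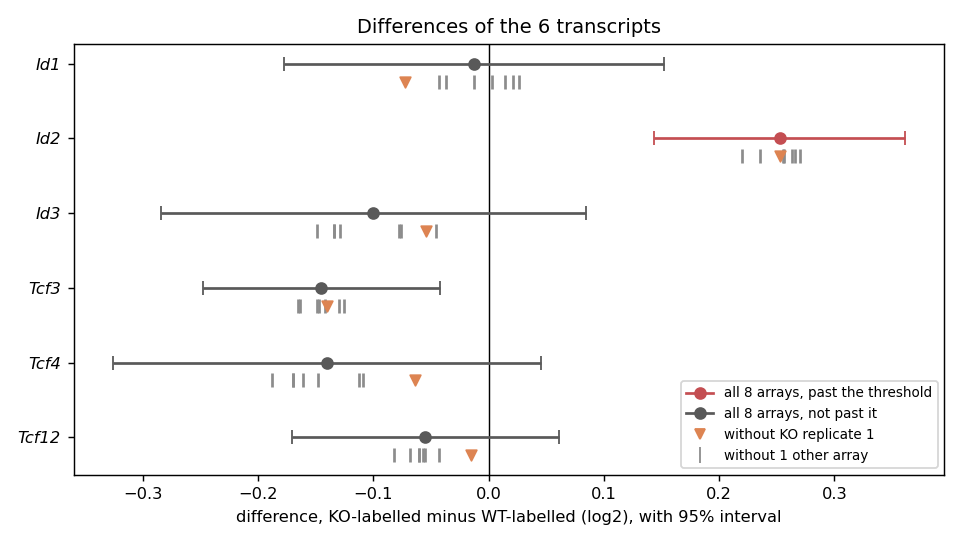
Difference of each gene, KO-labelled minus WT-labelled (log2, x axis), with its 95% interval over all 8 arrays; the marks under each line give the difference with 1 array left out, the triangle that without KO replicate 1. The Id2 and Tcf3 intervals do not reach 0, and the Tcf4 and Tcf12 differences lie closest to 0 without KO replicate 1.

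The spread within the groups was uneven. In KO replicate 1, Id1 lay 0.18 above its group mean, whereas Tcf4 lay -0.23, Id3 -0.14 and Tcf12 -0.12 from theirs, and Id2 and Tcf3 were within 0.015 of their means. WT replicate 3 combined a high Id1 (0.12 above the group mean) with the lowest Id2 (-0.098) and a low Id3 (-0.15). KO replicate 1 is the array with the raised 40th percentile. The part of that shift in the values of Id1, Id3, Tcf4 and Tcf12 was not tested, and Id2 and Tcf3 differed by 0.25 and -0.14 without that array.

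**Figure D4:**
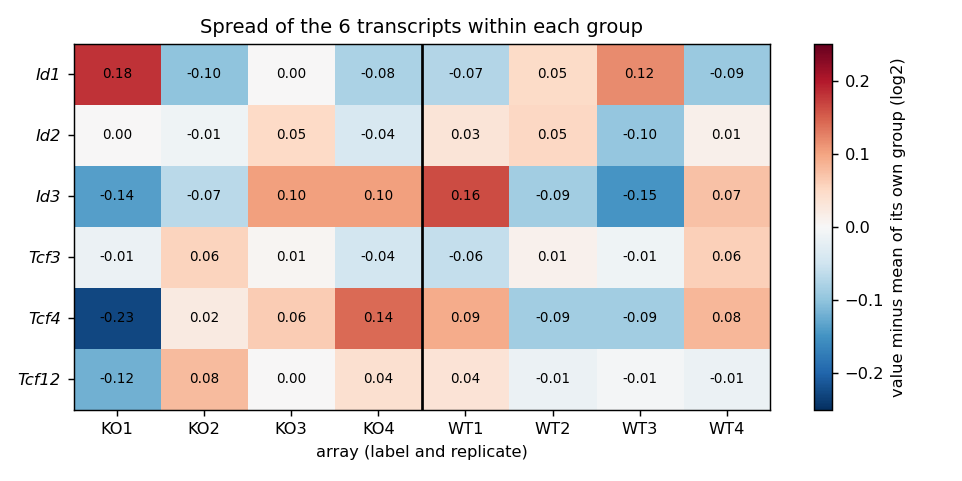
Distance of each array's value from the mean of its own group (log2, colour and number) for the 6 genes (rows) on the 4 KO-labelled (left) and 4 WT-labelled arrays (right). The largest distance is Tcf4 in KO replicate 1 (-0.23), the column that also holds the highest Id1 distance (0.18).

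The start regions of Id2 and Tcf3 are shown because these are the 2 genes whose groups did not overlap, one in each direction. The sequences are the 250 bases before the annotated start, from RefSeq on build GRCm38.p6, on the minus strand at chr12:25096093-25096342 for Id2 and on the minus strand at chr10:80433636-80433885 for Tcf3. Capitals mark the E-box CANNTG, which reads the same on both strands, in the 5′ to 3′ direction of the gene.
Id2: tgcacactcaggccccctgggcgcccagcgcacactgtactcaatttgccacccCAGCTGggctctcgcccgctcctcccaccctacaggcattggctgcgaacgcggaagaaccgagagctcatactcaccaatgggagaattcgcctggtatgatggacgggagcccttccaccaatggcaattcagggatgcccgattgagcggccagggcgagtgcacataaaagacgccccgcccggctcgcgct
Tcf3: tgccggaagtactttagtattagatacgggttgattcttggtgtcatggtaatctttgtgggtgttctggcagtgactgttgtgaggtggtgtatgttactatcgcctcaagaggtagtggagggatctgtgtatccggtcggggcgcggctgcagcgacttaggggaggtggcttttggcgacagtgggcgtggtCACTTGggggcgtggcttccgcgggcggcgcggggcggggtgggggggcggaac

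Each of these windows held 1 CANNTG match, where 66.2% of 32851 windows of this kind in the mouse annotation held at least 1. The match of Id2 was CAGCTG, a form E proteins are known to bind, which 13% of all windows held on either strand. It began 196 bases before the start. Neither window held TTCNNNGAA, the Stat-type motif (7.02% of all windows, both strands), and so neither held TTCCTNGAA, a form of it bound by Bcl6 (1.31%). The Id3 window held no CANNTG, and 1 of the 3 windows of Tcf12 held CAGCTG. A match is letters in a window and not a binding site, and these arrays did not measure binding.

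Of 25 listed genes that E proteins are known to act on, 18 were tested and none passed, where 1.32% of all tested genes did. With so low a share, no call in a list of this size says little about the list, here and below. The lists were chosen with earlier results of these arrays known, so their shares, here and below, are a description. The differences were positive in 6 and negative in 12, where 41.3% of all tested genes had a positive difference. The list median was -0.0737, against -0.0175 over all tested genes. The KO and WT values did not overlap in 3 of the 18, against 10.8% of all tested genes. Il7r, the interleukin-7 receptor chain, had the smallest p. It read 9.18, 9.49, 9.35 and 9.42 in the KO-labelled arrays and 8.02, 8.64, 8.64 and 9.10 in the WT-labelled arrays, a difference of 0.76 ± 0.185 (SE, limma adjusted p = 0.0794). With KO replicate 1 left out there were 2 calls, Il7r higher (limma adjusted p = 0.0378) and the chemokine receptor gene Cxcr4 lower. Without WT replicate 3 there were 0, and without both arrays Gata3, a regulator of T helper cells, was the 1 call, higher. Over all tested genes, 783 of 11866 were called without KO replicate 1. Without WT replicate 3 it was 28 of 11884, and without both arrays 446 of 11801.

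Effector genes reported to go with high Id2 held 1 call among 10 tested of 16 listed, or 10%, against 1.32% of all tested genes. Il12rb2, a chain of the receptor for interleukin-12, rose in KO: it read 10.49, 10.59, 11.02 and 10.73 in the KO-labelled arrays, against 9.84, 9.93, 9.84 and 10.33 in the WT-labelled arrays. The groups did not overlap, and the difference was 0.72 ± 0.134 (SE, limma adjusted p = 0.0418). It was the 1 call of the list without KO replicate 1 too, where 783 of all 11866 tested genes were called. It was lost with any 1 of KO replicates 2, 3 and 4 or WT replicates 1, 2 and 3 left out (0.08 to 0.147), and with no filter (0.0672). The list median was 0.105, with 7 positive and 3 negative differences, where 41.3% of all tested genes had a positive difference. The KO and WT values did not overlap in 3 of the 10, against 10.8% of all tested genes, with Il12rb2 and Bcl2 above WT and Prf1 below. Prf1 read 8.55 to 8.63 in KO and 8.75 to 9.33 in WT, a difference of -0.44 (limma adjusted p = 0.102).

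Memory precursor genes reported to go with high Id3 held no call among 9 tested of 11 listed, against 1.32% of all tested genes. The list median was -0.15. The KO and WT values did not overlap in 7 of the 9, against 10.8% of all tested genes, with KO above WT in 3 (Il7r, Ccr7 and Bcl2) and below in 4 (Lef1, Bach2, Cd27 and Myb). Il7r, Bcl2 and Lef1 also stand in lists above, so the lists are not separate. The smallest p of the list was that of Myb, a transcription factor of progenitor-like T cells, at -0.25 ± 0.0567 (SE, limma adjusted p = 0.0646). In the fit without KO replicate 1, with 783 of all 11866 tested genes called, Il7r was called higher. Myb and Bach2, a repressor of effector genes, were called lower. Without WT replicate 3 (28 of 11884 genes called), and without both arrays (446 of 11801), there were 0 calls in the list.

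**Figure D5:**
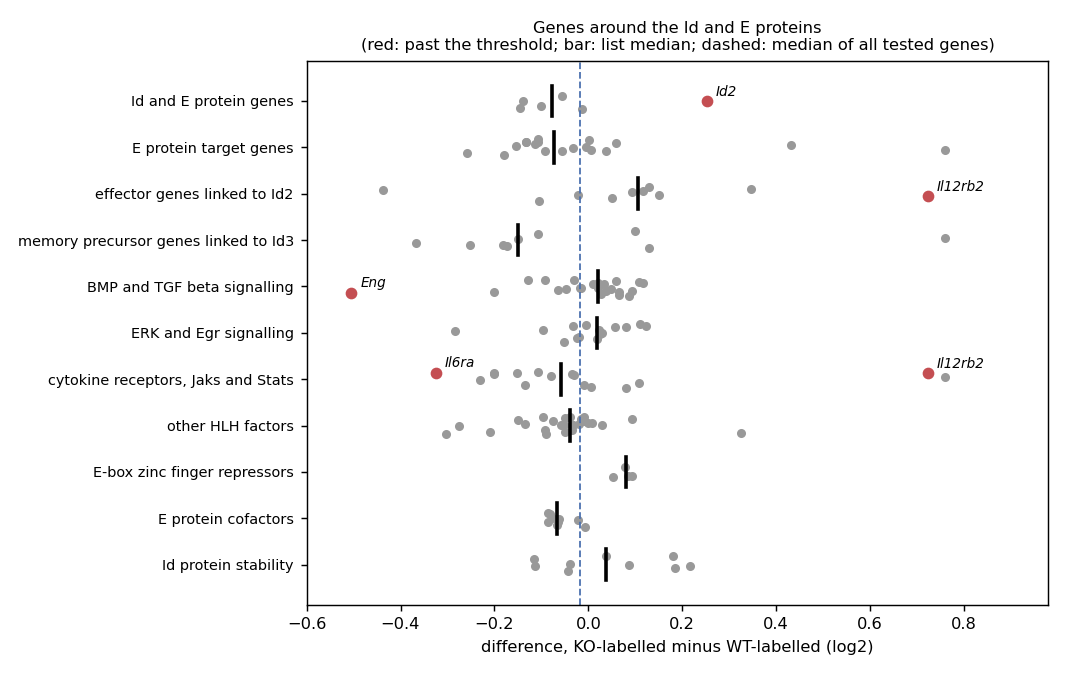
Difference of each tested gene, KO-labelled minus WT-labelled (log2, x axis), for the Id and E protein genes and 10 lists around them (y axis); red points passed the threshold and are named, black bars are list medians, and the dashed line is the median of all tested genes (-0.0175). Il12rb2 stands in 2 lists and is drawn in each, as are Il7r, Lef1, Bcl2 and Zeb2 in each of theirs. Calls are single genes, and the unnamed members of their lists did not pass the threshold.

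Of the pathways that switch Id genes on, the bone morphogenetic protein and TGF beta pathway held 1 call among 23 tested of 25 listed genes, or 4.35%, against 1.32% of all tested genes. Eng, which encodes the co-receptor endoglin, fell in KO, reading 7.49, 7.38, 7.60 and 7.38 in the KO-labelled arrays and 8.13, 7.96, 7.97 and 7.81 in the WT-labelled arrays. The groups did not overlap, and the difference was -0.51 ± 0.0759 (SE, limma adjusted p = 0.0181). The call was lost without KO replicate 2 (0.078), WT replicate 2 (0.0858) or WT replicate 3 (0.0743). The KO and WT values did not overlap in 3 of the 23, against 10.8% of all tested genes. The list median was 0.02, and without KO replicate 1 (783 of all 11866 genes called) Eng was again the 1 call. Without both arrays (446 of 11801) the type I receptor gene Acvr1b was called lower beside it.

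No gene of the ERK and Egr branch of T cell receptor signalling, which induces Id3, passed among 15 tested of 20 listed (median 0.0175). Of all tested genes 1.32% passed. The KO and WT values did not overlap in 2 of the 15, against 10.8% of all tested genes. Fos, a subunit of AP-1, came nearest at -0.28 ± 0.0605 (SE, limma adjusted p = 0.0539). It was called lower in 5 of 20 alternatives: without KO replicate 1 (0.0238), without KO replicate 1 and WT replicate 3 (0.0464), with the stricter filter at the 50th percentile (0.039), with a further quantile normalization (0.0443) and with array weights (0.0042).

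Cytokine receptors, Jaks and Stats, which act upstream of Id2, held 2 calls among 16 tested of 19 listed, or 12.5%, against 1.32% of all tested genes, and 8 of the 16 did not overlap (3 above and 5 below WT), against 10.8% of all tested genes. Il12rb2, given above, was higher. Il6ra, the receptor of the IL-6 in the culture, fell: it read 10.30, 10.28, 10.19 and 10.15 in the KO-labelled arrays and 10.49, 10.55, 10.62 and 10.56 in the WT-labelled arrays. The groups did not overlap, and the difference was -0.32 ± 0.0518 (SE, limma adjusted p = 0.0227). It was lost with any 1 of KO replicates 2, 3 and 4 or WT replicates 2 and 3 left out (0.053 to 0.106), and with no filter (0.0534). The list median was -0.0575. Leaving out KO replicate 1 (783 of all 11866 genes called) gave 2 higher (Il12rb2 and Il7r, both also in lists above) and 4 lower (Il6ra, Il21r, Stat3, Stat5a). Without WT replicate 3 (28 of 11884) there were 0, and without both arrays (446 of 11801) 1 higher and 2 lower.

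Other helix-loop-helix genes, among them possible partners of E proteins, held no call among 27 tested of 45 listed, against 1.32% of all tested genes. The differences were positive in 4 and negative in 22, where 41.3% of all tested genes had a positive difference. The list median was -0.04, against -0.0175 over all tested genes. Ascl2, a Tfh factor that pairs with E proteins, was under the filter. Mxd1, an antagonist of Myc in its own dimer network, had the smallest p at -0.28 ± 0.0607 (SE, limma adjusted p = 0.0605). There were 3 calls without KO replicate 1 (783 of all 11866 genes), all lower, and without WT replicate 3 (28 of 11884) there were 0. Without both arrays (446 of 11801) Usf2, which also binds E-boxes, was the 1 call, lower.

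The zinc finger genes that compete for E-boxes held no call among 4 tested of 5 listed, where 1.32% of all tested genes were called. Zeb1, a repressor, differed by 0.053 ± 0.0475 (SE, limma adjusted p = 0.66). E protein cofactors held no call among 9 tested of 12 listed. All 9 differences were negative, between -0.085 and -0.0075, where 41.3% of all tested genes had a positive difference. The KO and WT values overlapped in all 9, and in the 4 zinc finger genes. Crebbp, the coactivator CBP, had the smallest p at -0.082 ± 0.0492 (SE, limma adjusted p = 0.46). Enzymes and cyclins reported to act on the stability or phosphorylation of Id and E proteins held no call among 9 tested of 9 listed (median 0.0375). Ccna2, cyclin A2, came nearest at 0.22 ± 0.0516 (SE, limma adjusted p = 0.0763). It was the 1 gene of the 9 whose KO and WT values did not overlap. With KO replicate 1 left out (783 of all 11866 genes called), Ccna2 and the ubiquitin ligase subunit gene Skp2 were called higher. Without both arrays (446 of 11801) it was Skp2 alone, and without WT replicate 3 (28 of 11884) there were 0.

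Markers of other cells in which Id2 is abundant held no call, where 1.32% of all tested genes were called. The mean log2 value of 10 NK and innate lymphoid cell markers was 6.02 to 6.14 in KO and 6.11 to 6.35 in WT, with Ncr1, Klrb1c, Klrk1, Klra8, Klrd1, Gzma and Fcer1g under the filter. Nkg7, a granule protein gene, differed by -0.89 ± 0.233 (SE, limma adjusted p = 0.0947). The mean of 6 CD8 T cell markers was 8.52 to 8.66 in KO and 8.68 to 8.93 in WT, with no overlap. Of its 5 tested genes none passed, with the protease gene Ctsw at -0.52 (limma adjusted p = 0.0696) and Cd8a and Cd8b1 at -0.042 and 0.03. Crtam and Runx3 of this list were called lower without KO replicate 1 (783 of all 11866 genes called). Crtam was also called lower without that array and WT replicate 3 (446 of 11801). The part of these markers in the Id2 difference was not tested.

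Markers of cells that rely on Tcf3 or Tcf4 held no call, where 1.32% of all tested genes were called. Of 9 B cell markers on the array 2 were tested, and Cd79a, Ms4a1, Pax5 and Ebf1 were under the filter. The mean of all 9 was 6.15 to 6.51 in KO and 6.26 to 6.34 in WT, and Ighm differed by 0.14 (limma adjusted p = 0.561). Of 8 plasmacytoid dendritic cell markers 4 were tested, with Siglech and Spib under the filter. The mean of all 8 was 7.77 to 7.97 in KO and 7.89 to 8.07 in WT. Irf8, a transcription factor gene that activated T cells express too, had the largest of the 4 differences at -0.47 (limma adjusted p = 0.116), with overlapping groups. Pacsin1 read 8.77 to 8.90 in KO and 9.01 to 9.12 in WT and differed by -0.22 (limma adjusted p = 0.0605). It was called lower in 3 of 20 alternatives, the fit without KO replicate 1 among them. Of 10 myeloid markers 2 were tested. The mean of all 10 was 7.01 to 7.03 in KO and 6.97 to 7.03 in WT, and Cst3 differed by -0.16 (limma adjusted p = 0.118). The part of these markers in the Tcf3 and Tcf4 values was not tested.

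For each family member, genes were ranked by Pearson's r of the distances from the group mean over the 8 arrays, a description with few points. These distances leave out the KO and WT difference, and r over the values themselves could be far lower. With Id2 it was -0.131 for Mfsd3, 0.0234 for Mn1 and 0.769 for Esrra, the genes named next. For the genes of the other members it ran from -0.0945 (Me2 with Tcf4) to 0.994 (Upf2 with Tcf4). For Id2 they were Mfsd3 (r = 0.972), Mn1 (0.924) and Esrra (0.915), and 5 of 11229 genes exceeded 0.9. For Tcf3 they were Elf4 (0.945), Themis (0.933) and Lrch3 (0.923), with 12 above 0.9. For Tcf4 they were Upf2 (0.992), Oxsr1 (0.991) and Me2 (0.991), with 535 above 0.9, and for Tcf12 Ginm1 (0.99), Agbl5 (0.981) and Ccnk (0.977), with 119. For Id1 they were Pyurf (0.991), Slc52a3 (0.985) and Crygn (0.981), with 183, and for Id3 Car5b (0.981), Aunip (0.979) and Rnf216 (0.979), with 93. The numbers above 0.9 were highest for Tcf4 and Id1, the genes with the largest distances in KO replicate 1, and none of these 18 genes passed the threshold.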

How the data were processed

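The authors deposited 1 log2 value per probe set and array. RMA and Partek are named, per the submitters' processing notes, with no version or order of steps. RMA usually brings arrays to 1 distribution, which hides changes in total RNA. The deposited values did not share 1 distribution exactly, with array medians of 7.35 to 7.42. The number of arrays limits the precision.

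Of 35556 probe sets, 21789 had 1 gene symbol in the platform annotation, 1621 several and 12146 none, and 21698 matched RefSeq mouse genes (GRCm38.p6) by Entrez identifier. The probe set with the highest mean stood for a gene. A gene was tested if it exceeded, in at least 4 arrays, the array's 40th percentile over probe sets with 1 symbol (Bcl6 was kept regardless), which left 11926. The analysis plan did not say over which features this percentile runs. It was run first over all probe sets (12573 tested, Id2 not called, limma adjusted p = 0.0514), then over genes (11998 tested, 0.0466), and last as reported (0.0462), so the definition was chosen after the first results were seen.

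The KO and WT arrays were compared by a two-sided limma 3.58.1 fit (R 4.3.3, lmFit and eBayes, without a block). P-values were adjusted by Benjamini-Hochberg across the tested genes, and 0.05 was the threshold. The steps were checked on simulated data. Members and lists were chosen with earlier results of these data known. Genes named were the members, Bcl6, for each list up to 2 called members in each direction or else the one with the smallest p, and the 3 most alike per member. Other names were chosen after their values were seen. Predicted genes, clones, small RNAs and receptor segments were left out of the likeness ranking. Promoter windows were found for 4 of the 6 members (Id2, Id3, Tcf3, Tcf12).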

Additional observations from a re-analysis of the deposited data

Results flagged for a closer look

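In 2 of 48 groups of 4 arrays, over 24 named genes, 1 array lay far from the other 3, which is about what chance gives (1 in 20 groups, or 2.4 here). Zeb1 read 10.45 in KO replicate 2, with the other 3 KO-labelled arrays at 10.36 to 10.37. The Tfh marker Cd200, an immunoglobulin-family glycoprotein that rose in KO over all 8 arrays (0.34 ± 0.061, SE, limma adjusted p = 0.038), read 12.12 in KO replicate 1, with the other 3 KO-labelled arrays all at 12.31. With any 1 array other than KO replicate 1 left out, Cd200 no longer passed (0.0601 to 0.143), nor did it with median centring (0.0555) or no filter (0.0769). No Id or E protein gene had such an array.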

How the results depend on the processing

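Id2 differed by 0.22 to 0.27 in every one of 20 alternatives, and its call depended on the setting. Changed filters, prior, block and probe set summary cannot move the difference, so those alternatives do not test its size or sign. Limma adjusted p was 0.0589 with arrays centred on their medians (difference 0.26), 0.103 with no filter (0.25), 0.119 with the replicate number as a block (0.25) and 0.0514 with the percentile over all probe sets (0.25). That last setting was the first one run, and the reported setting was adopted after it. With 1 array left out the difference ran from 0.22 to 0.27. The number of members called, 1 as reported, was 0 in those 4 settings and at an adjusted p of 0.01, 2 with array weights (Tcf3 beside Id2), and 0 to 1 with 1 array left out. Id1 ran from -0.0725 to 0.0267 with 1 array left out. It was positive without KO replicate 2 (0.0208), KO replicate 4 (0.0142), WT replicate 2 (0.0033) and WT replicate 3 (0.0267), and it was not tested at the 50th percentile.

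Of all genes, 157 were called (77 higher, 80 lower). The count was 322 with a further quantile normalization, 78 with median centring (48 higher, 30 lower), 58 with no filter, 354 with an intensity trend and robust prior, 1980 with array weights, 36 with the replicate block, 446 without KO replicate 1 and WT replicate 3, 27 at 0.01 and 468 at 0.1. With 1 array left out it ran from 28 (without WT replicate 3) to 783 (without KO replicate 1), with 106 without WT replicate 4. The replicate block also ended the calls of Il12rb2 (0.0858), Il6ra (0.0977), Cd200 (0.109) and Bcl6 (0.0606). Arrays of equal replicate number had correlations of 0.0111, 0.145, -0.17 and 0.31 in their distances from the group mean. These were not compared with those of unequal numbers, so they do not decide whether the arrays are paired. The causes of these shifts were not tested.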

Other observations

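Several helix-loop-helix genes outside the Id and E protein family had KO and WT values that did not overlap (5 of 27 tested, against 10.8% of all tested genes), and none passed the threshold over all 8 arrays. They were picked after their values were seen. Bhlhe40, a stress- and activation-induced repressor of T cells, differed by 0.33 (limma adjusted p = 0.161), Mxd4, a Myc antagonist like Mxd1, by -0.30 (0.0782) and Usf2 by -0.21 (0.144). Without KO replicate 1, Mxd1, Mxd4 and Usf2 were called lower, in a fit that called 783 of all 11866 tested genes.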
